A study of Ophiorrhiza pumila with 6 samples.

Results

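Hairy root (HR) lines of *Ophiorrhiza pumila* that carry the same RNAi construct were compared with each other, to describe which plant genes vary between independent clones. All 6 libraries of the series entered, as 3 pairs of lines, and for each of the 59855 contigs of the *de novo* assembly the log2 ratio of the 2 lines of a construct was computed. The pairs were ERF1i-19 over ERF1i-7, both with a hairpin against *OpERF1*; ERF2i-3 over ERF2i-2, both with a hairpin against *OpERF2*; and GUSi-10 over GUSi-9, both with a hairpin against the *GUS* reporter, the controls of the study. Every line came from a separate transformation by *Agrobacterium rhizogenes* with the Ri plasmid pRi15834 and a pGWB80 vector, was selected on hygromycin and kanamycin, and was harvested at 3 weeks. The study had chosen its ERF1i and ERF2i lines for low expression of the targeted gene. Each line is 1 clone with 1 library, so a difference between 2 lines of a construct has no replicate check, and a difference between clones, cultures and libraries cannot be told apart. No test was made and the sign of a ratio is arbitrary, since the line on top is the one with the higher clone number. The sample labels give the 2 ERF2i lines their clone numbers the other way round from the annotation table, whose FPKM match the opposite line for all 59855 contigs; the labels are followed here, and the choice affects only names and signs in that pair.

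A hairy root grows from a plant cell into which the bacterium has inserted its T-DNA. The left T-DNA of the Ri plasmid holds the *rol* genes that start root growth, and the right T-DNA holds genes for auxin synthesis and for opines such as mannopine and agropine. Each clone takes up these pieces and the binary vector at its own sites and in its own number of copies. The roots of *O. pumila* make camptothecin, an alkaloid built from secologanin, an iridoid, and tryptamine, which are joined into strictosidine.

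The libraries held 11517610 to 13199946 expected counts, RSEM's estimates of how many fragments came from each contig, and TMM factors, which scale libraries on the bulk of their contigs, were 0.909 to 1.08. A scaled count is the expected count divided by library total and TMM factor and brought to the mean library, and ratios were formed after adding 0.5. A contig was called measured in a pair when the mean of its 2 scaled counts was at least 50, which held for 21503 contigs in ERF1i, 21394 in ERF2i and 21393 in GUSi, 19676 of them in all 3 pairs and 23211 in at least 1. It was called past 2-fold when the ratio of its scaled counts was at least 2 in either direction. Endodermis markers were read in all lines. Summed scaled counts of the 93 endodermis contigs (CASP-like, scarecrow and Casparian strip proteins) were 22030 in ERF1i-19, 26374 in ERF1i-7, 25655 in ERF2i-3, 26805 in ERF2i-2, 24163 in GUSi-10 and 21930 in GUSi-9. Of the 55 contigs of green or shoot-like tissue (chlorophyll-binding proteins, YABBY, knotted-like) 20 had no count in any line, and the sums were 6320 in ERF1i-19, 5211 in ERF1i-7, 5204 in ERF2i-3, 4612 in ERF2i-2, 4107 in GUSi-10 and 4405 in GUSi-9. The 2 contigs of a WUSCHEL-related homeobox 5-like gene, a regulator of the stem cells of the root tip, summed to between 4.96 and 24.2 scaled counts in the 6 lines, close to absent. Markers of xylem and lignifying cells, laccases among them, summed to 9312 in ERF1i-19, 7406 in ERF1i-7, 5314 in ERF2i-3, 5032 in ERF2i-2, 7779 in GUSi-10 and 6184 in GUSi-9. Of the 29 measured in ERF1i, 8 were past 2-fold higher and 1 lower in ERF1i-19, where 4.18% of all contigs were past 2-fold in either direction. Their median log2 ratio was −0.02, so the higher sum in ERF1i-19 did not hold for the typical marker. In the bulk RNA of a root, fewer cells of a type and less RNA per cell cannot be told apart.

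The ERF1i lines differed most from each other. In that pair 898 of 21503 contigs (4.18%) were past 2-fold, 450 higher (2.09%) and 448 lower (2.08%) in ERF1i-19 than in ERF1i-7, and 101 (0.47%) were past 4-fold. In the GUSi pair 284 of 21393 contigs (1.33%) were past 2-fold, 134 higher (0.626%) and 150 lower (0.701%) in GUSi-10, with 42 (0.196%) past 4-fold. The ERF2i lines were the most alike, with 74 of 21394 contigs (0.346%) past 2-fold, 53 higher (0.248%) and 21 lower (0.0982%) in ERF2i-3, and 5 (0.0234%) past 4-fold. The median absolute log2 ratio was 0.18 in ERF1i and 0.14 in each of the other pairs. One side of the range of the middle 68% of log2 ratios was 0.30 in ERF1i, 0.22 in ERF2i and 0.23 in GUSi. A typical counting SD of a log2 ratio was 0.14 in each pair. Most contigs of 2 clones of a construct thus lay well within 2-fold of each other.

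Among well-read contigs the spread between clones was several times wider than counting error. Over contigs with mean scaled counts of 1000 to 5000, the spread of log2 ratios, given as one side of the range of the middle 68%, was 0.25 in ERF1i, 0.15 in ERF2i and 0.17 in GUSi, against a counting SD of 0.05. Among contigs of 50 to 100 scaled counts the spreads were 0.39, 0.32 and 0.32 in the same order, against a counting SD of 0.24. The 207 to 325 contigs above 5000 scaled counts were no tighter, with spreads of 0.40 in ERF1i, 0.19 in ERF2i and 0.26 in GUSi.

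**Figure D1:**
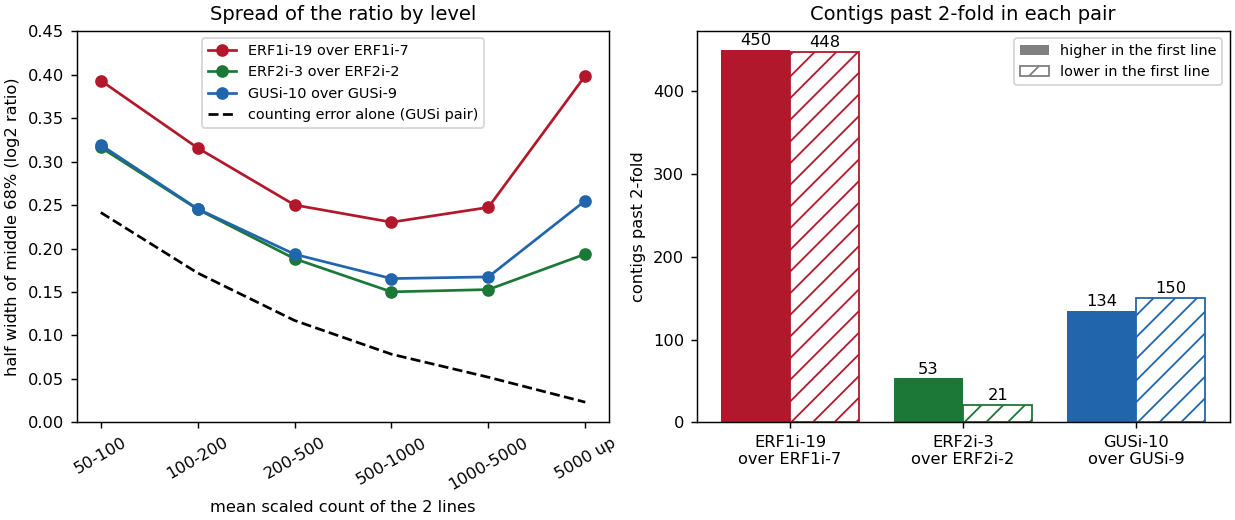
Left, spread of log2 ratios as one side of the range of the middle 68% (y axis) by mean scaled count of the pair (x axis), 1 curve per construct, with the counting error of the GUSi pair dashed. Right, contigs past 2-fold in each pair, filled bars for contigs higher and hatched bars for contigs lower in the line named first; the ERF1i pair had 450 and 448, against 53 and 21 in ERF2i and 134 and 150 in GUSi.

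Which clone stood apart was read from the 4 lines of the other constructs. Of the 898 contigs past 2-fold in ERF1i, ERF1i-19 lay farther than ERF1i-7 from the median of those 4 lines in 640 (71.3%, against 55.5% of all measured contigs). It was the highest or the lowest of the 6 lines in 636 of the 898 (70.8%, against 36.4% of all measured contigs), and ERF1i-7 in 284 (31.6%, against 25.7%); choosing contigs by their ratio raises both shares. In ERF2i, ERF2i-3 was the farther line for 18 of 74 contigs (24.3%, against 38.2% of all measured contigs) and ERF2i-2 for the rest. In GUSi, GUSi-10 was the farther line for 145 of 284 contigs (51.1%, against 52.6%). The other lines carry other constructs, so this places a clone among all lines and not among clones of its own construct.

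Transcripts of the transferred DNA differed between clones. Of the vector genes, neomycin phosphotransferase (c3966_g1_i1), the kanamycin resistance gene, was past 2-fold in every pair, with 2313 expected counts in ERF1i-19 and 1150 in ERF1i-7, 4052 in ERF2i-3 and 1393 in ERF2i-2, and 3403 in GUSi-10 and 779 in GUSi-9. The beta-glucuronidase contig (c26211_g1_i1) followed it, with 632 expected counts in ERF1i-19 and 331 in ERF1i-7, 1024 in ERF2i-3 and 343 in ERF2i-2, and 899 in GUSi-10 and 197 in GUSi-9. In both contigs the same line of each pair was high, ERF1i-19, ERF2i-3 and GUSi-10, and the log2 ratios were 1.07, 1.53 and 2.11 for the first against 0.99, 1.57 and 2.17 for the second, pairs in that order. Hygromycin phosphotransferase (c27279_g2_i1), the other resistance gene, did not follow them: it had 1628 expected counts in ERF1i-19 and 4495 in ERF1i-7, 3291 in ERF2i-3 and 4290 in ERF2i-2, and 3899 in GUSi-10 and 3020 in GUSi-9.

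Genes of the left T-DNA were read in all 6 lines. The *rolC* contig (c36680_g1_i1) had 3425 expected counts in ERF1i-19 and 2002 in ERF1i-7, 3174 in ERF2i-3 and 1970 in ERF2i-2, and 8580 in GUSi-10 and 2351 in GUSi-9, and was past 2-fold in GUSi alone. The *rolB* contig (c30113_g1_i1) stayed within 2-fold in each pair, with log2 ratios of −0.38 in ERF1i, 0.02 in ERF2i and 0.63 in GUSi. A contig like *orf13* (c23560_g1_i1), which alters growth when expressed in plants, had 29430 expected counts in GUSi-10 and 6013 in GUSi-9, a ratio of 4.84-fold (counting interval 4.71 to 4.98), and lay within 2-fold in the other pairs.

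A further 3 contigs had best hits among hypothetical proteins of *Catharanthus roseus*, and their origin is not annotated. The most read of them (c32005_g1_i1) had 80072 expected counts in GUSi-10 and 13010 in GUSi-9, against 20901 in ERF1i-19, 25418 in ERF1i-7, 27052 in ERF2i-3 and 37527 in ERF2i-2. The others (c20102_g1_i1 and c32424_g1_i1) had log2 ratios of 2.53 and 1.58 in GUSi. All of them were higher in GUSi-10 than in GUSi-9, and whether they belong to the plant or to the T-DNA was not tested.

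Genes of the right T-DNA split the pairs differently. Mannopine synthase (c25644_g1_i1) had 4503 expected counts in ERF2i-3 and 8605 in ERF2i-2, 2628 in GUSi-10 and 2744 in GUSi-9, and 0 in ERF1i-19 and 3 in ERF1i-7. The agropine conjugase (c31834_g1_i1) had 8951 expected counts in ERF2i-3 and 17237 in ERF2i-2, and the *rolB*-like gene of the right T-DNA (c27304_g1_i1) had 311 in ERF2i-3 and 663 in ERF2i-2. Over the 6 right T-DNA contigs measured in ERF2i the log2 ratios lay between −1.38 and −0.94, so all of them were lower in ERF2i-3 than in ERF2i-2 by a similar ratio. In GUSi the same contigs lay between −0.25 and 0.13 except the agropine cyclase (c33497_g1_i1), with 4440 expected counts in GUSi-10 and 2035 in GUSi-9, a ratio of 2.16-fold (counting interval 2.05 to 2.28). Both ERF1i lines had at most 3 counts in every right T-DNA contig, so no ratio is given for that pair.

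**Figure D2:**
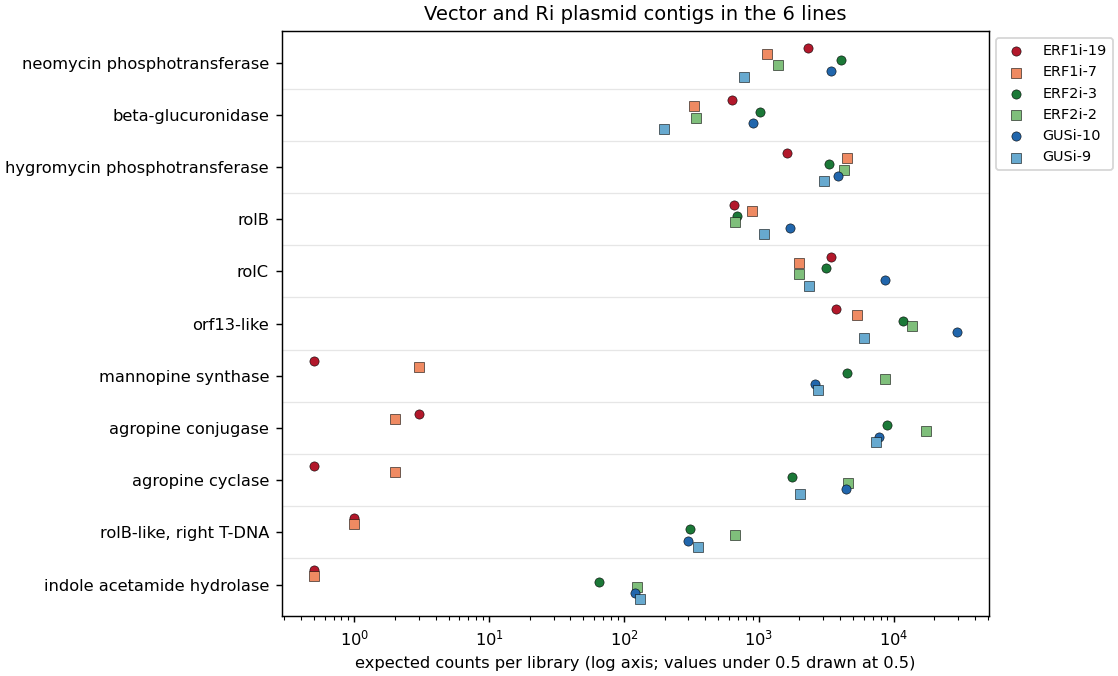
Expected counts (x axis, log) of 11 contigs of the vector and the Ri plasmid in the 6 lines, 1 point per library, circles for the line named first in each pair. Neomycin phosphotransferase and beta-glucuronidase are high in ERF1i-19, ERF2i-3 and GUSi-10, and the 5 right T-DNA contigs lie at 3 counts or fewer in both ERF1i lines.

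The targeted genes differed between clones of their own construct. *OpERF1* (c15284_g1_i1) had 276 expected counts in ERF1i-19 and 53 in ERF1i-7, a ratio of 5.38-fold (counting interval 4.03 to 7.42), against 8119 in ERF2i-3, 9533 in ERF2i-2, 2099 in GUSi-10 and 3161 in GUSi-9. The intervals here and below are exact 95% intervals for the ratio of 2 counts and cover counting error only. *OpERF2* (c17706_g2_i1) had 55 expected counts in ERF2i-3 and 12 in ERF2i-2, a ratio of 4.44-fold (counting interval 2.41 to 9.35) at a mean below the count floor, and 109 in ERF1i-19, 40 in ERF1i-7, 35 in GUSi-10 and 63 in GUSi-9. Both targets were thus unequal between the lines of their own construct. For *OpERF2* the count of ERF2i-3 lay between those of the GUSi lines, and that of ERF2i-2 lay below both. These counts are low and may include fragments of the hairpin transcript, which shares the sequence of its target. The *OpERF1* counts may include such fragments too.

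Among contigs with a description, the steepest differences between the ERF1i clones were in genes that handle copper. Plants take up copper as a reduced ion, pass it to enzymes through chaperones, and in Arabidopsis respond to copper shortage by raising ferric-chelate reductases, a ZIP transporter, a copper chaperone and Fe superoxide dismutase, while Cu/Zn superoxide dismutase and laccases go down. Among the contigs named here, those of the first kind were lower in ERF1i-19 than in ERF1i-7. Of the second kind several were higher, laccase-17 being lower. These contigs were picked after their values were seen, and whether the clones differed in copper supply was not tested. A ferric-chelate reductase (c25119_g1_i1), which reduces metal ions at the root surface, had 25 expected counts in ERF1i-19 and 884 in ERF1i-7, 33.3-fold (counting interval 22.8 to 52.7) lower in ERF1i-19, against 820 in ERF2i-3, 890 in ERF2i-2, 1232 in GUSi-10 and 731 in GUSi-9. Fe superoxide dismutase (c44638_g1_i1), which removes superoxide without copper, had 809 expected counts in ERF1i-19 and 5456 in ERF1i-7 (log2 ratio −2.69), against 7383 in ERF2i-3, 7097 in ERF2i-2, 9848 in GUSi-10 and 8407 in GUSi-9. The copper chaperone (c28936_g2_i1) had 2556 expected counts in ERF1i-19 and 15113 in ERF1i-7 (log2 ratio −2.50), against 20558 in ERF2i-3, 19969 in ERF2i-2, 27280 in GUSi-10 and 22249 in GUSi-9. For all of these ERF1i-7 lay near the ERF2i and GUSi lines and ERF1i-19 lay alone.

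The same held for 3 zinc transporter 2-like contigs of the ZIP family. The most read (c8796_g1_i1) had 1116 expected counts in ERF1i-19 and 7423 in ERF1i-7, against 10943 in ERF2i-3, 11225 in ERF2i-2, 11707 in GUSi-10 and 8618 in GUSi-9. The others (c25352_g1_i1 and c48339_g1_i1) had log2 ratios of −2.90 and −3.28 in ERF1i, and every ratio of the 3 contigs in the other pairs was between −0.18 and 0.43. Among blue copper proteins, small secreted carriers of electrons, a basic blue protein (c24958_g2_i1) had 21 expected counts in ERF1i-19 and 646 in ERF1i-7 and early nodulin 55-2 (c30735_g2_i2) had 13 in ERF1i-19 and 312 in ERF1i-7. A second contig of each assembly gene gave log2 ratios of −4.73 and −4.22. Contigs without a description had the same pattern: c30735_g1_i1 had 5 expected counts in ERF1i-19 and 335 in ERF1i-7, and c45364_g1_i1 had 7 in ERF1i-19 and 295 in ERF1i-7.

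Several copper enzymes ran the other way. Cu/Zn superoxide dismutase (c24636_g1_i2) had 768 expected counts in ERF1i-19 and 150 in ERF1i-7, 5.32-fold (counting interval 4.47 to 6.4) higher in ERF1i-19, against 61 in ERF2i-3, 58 in ERF2i-2, 69 in GUSi-10 and 72 in GUSi-9, and its second contig (c24636_g1_i1) gave a log2 ratio of 2.09. The contig annotated as the copper chaperone of superoxide dismutase (c23455_g1_i1) had 693 expected counts in ERF1i-19 and 348 in ERF1i-7. Laccase-15 (c21360_g1_i1), a copper oxidase of the cell wall, had 2323 expected counts in ERF1i-19 and 568 in ERF1i-7, and a laccase-3-like contig (c26919_g1_i1) had 255 in ERF1i-19 and 63 in ERF1i-7. In a polyphenol oxidase (c8500_g1_i1) the counts were 3314 in ERF1i-19 and 889 in ERF1i-7. ERF1i-19 held the highest count of the 6 lines in each of these contigs. Laccase-17 (c30131_g1_i1) went against the others, with 99 expected counts in ERF1i-19 and 259 in ERF1i-7, and so did a blue copper protein (c33521_g1_i1), with 459 in ERF1i-19 and 1554 in ERF1i-7.

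Over a list of copper genes drawn up after these values had been seen, 21 contigs were higher and 15 lower past 2-fold in ERF1i-19 among 109 measured (33%, against 4.18% of all contigs), with a median log2 ratio of 0.18. The same list had 2 higher and 0 lower of 100 in ERF2i (2%, against 0.346%) and 4 higher and 1 lower of 109 in GUSi (4.59%, against 1.33%). Because the list was made from these values its counts are a description only. Laccases also make up part of the xylem and lignifying markers, whose sum was higher in ERF1i-19 while their median log2 ratio was −0.02. The part of that tissue in these values was not tested.

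**Figure D3:**
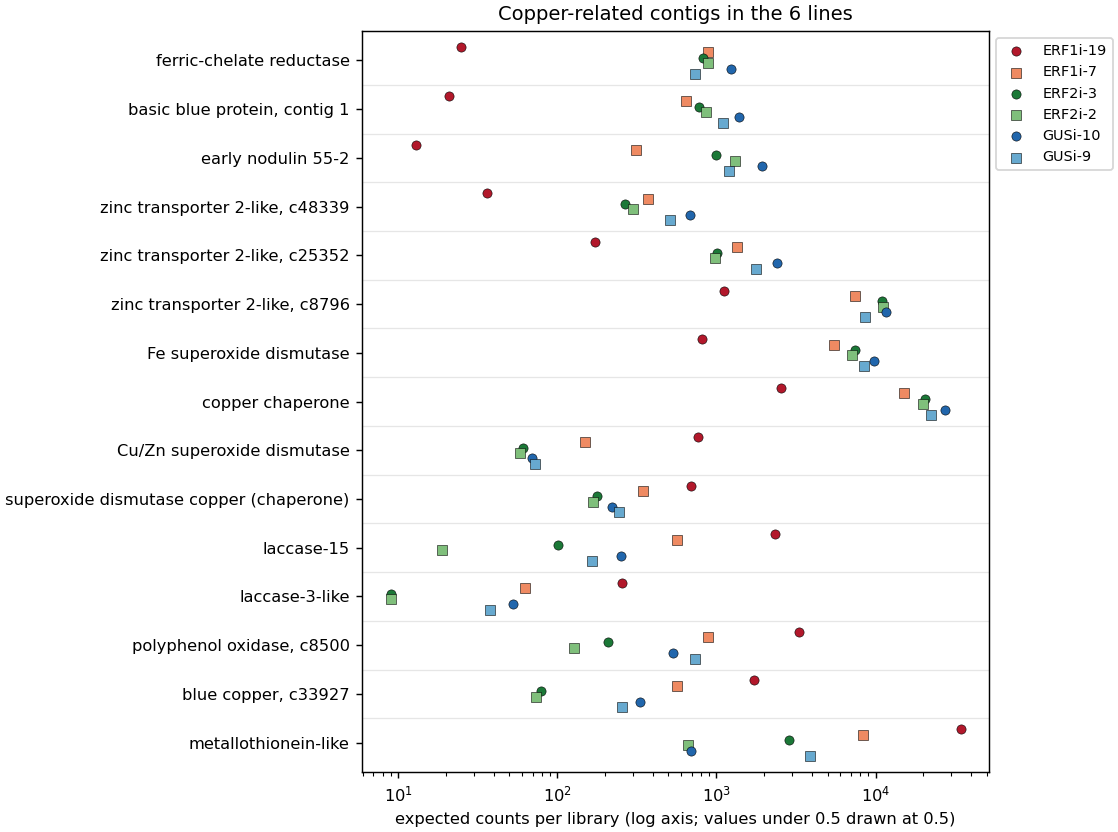
Expected counts (x axis, log) of 15 copper-related contigs in the 6 lines, 1 point per library. The contigs were picked after their values were seen. Laccase-17 and the blue copper protein c33521_g1_i1, both lower in ERF1i-19 than in ERF1i-7, are not drawn. Blue copper proteins lie in both blocks. In the upper 8 contigs ERF1i-19 is the lowest of the 6 lines and in the lower 7 the highest; metallothionein spreads in every pair, with 34204 counts in ERF1i-19 and 8346 in ERF1i-7.

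A second set of contigs was read in the ERF1i clones and close to absent in the other lines. Among contigs measured in ERF1i with at most 5 counts in each of the ERF2i and GUSi lines there were 28, from 28 assembly genes, and 26 of them were past 2-fold higher in ERF1i-19, 0 past 2-fold lower, with a median log2 ratio of 2.21 and a range of 0.78 to 3.41. The limit of 5 counts was set after these values had been seen, and members such as YABBY 1-like reached the floor of 50 through ERF1i-19 alone, so the counts are a description of this set. Protodermal factor 1-like (c27846_g1_i1), a cell wall protein of the epidermis, had 567 expected counts in ERF1i-19 and 138 in ERF1i-7, and 4 in ERF2i-3 with 0 in each of the other lines. Protodermal factor 2, the contig c29051_g1_i1 for a homeobox regulator of the outer layer, had 517 expected counts in ERF1i-19 and 108 in ERF1i-7, and at most 3 elsewhere.

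YABBY factors specify the lower side of leaves and floral organs in Arabidopsis. YABBY 4-like (c42908_g1_i1) had 172 expected counts in ERF1i-19 and 36 in ERF1i-7, and YABBY 1-like (c494_g1_i1) had 117 in ERF1i-19 and 27 in ERF1i-7. The ratios of these 4 genes lay close together, at 4.27-fold (counting interval 3.55 to 5.19), 4.97-fold (counting interval 4.05 to 6.19), 4.92-fold (counting interval 3.46 to 7.34) and 4.45-fold (counting interval 2.95 to 7.14), in the order named. Others of the set were an RD22-like contig (c24359_g1_i1), named for a drought-induced protein, with 218 expected counts in ERF1i-19 and 40 in ERF1i-7, an MLP 423-like contig (c26256_g1_i1) with 473 in ERF1i-19 and 87 in ERF1i-7, and epoxide hydrolase 2 (c41983_g1_i1) with 499 in ERF1i-19 and 98 in ERF1i-7. GDSL lipases (c28826_g1_i1 and c6332_g1_i1), enzymes of surface lipids, had log2 ratios of 2.18 and 1.75 and 0 counts outside ERF1i. ERF1i-7 held these transcripts too, at a lower level than ERF1i-19 in all 28 contigs. Of the list of YABBY and protodermal genes, 8 contigs were measured in ERF1i. The 4 named above were past 2-fold (50%, against 4.18% of all contigs). They reached the floor in ERF1i only, so this share is a description. The others went little apart or the other way, with 92 in ERF1i-19 and 136 in ERF1i-7 for GLABRA 2-like (c33613_g2_i1), a regulator of epidermal cell fate. Markers of root hair and epidermis summed to 8372 scaled counts in ERF1i-19 and 8375 in ERF1i-7. They include the protodermal factors and GLABRA 2-like, so this sum is not separate from the values above.

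Under the same rule ERF2i had 2 contigs, neither past 2-fold, and GUSi had 2 contigs of 1 assembly gene (c24991_g1_i1 and c24991_g1_i2), with 1 expected count in GUSi-10 and 178 in GUSi-9 for the first. Summed markers of green or shoot-like tissue were 6320 scaled counts in ERF1i-19 and 5211 in ERF1i-7; their part in the difference was not tested.

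**Figure D4:**
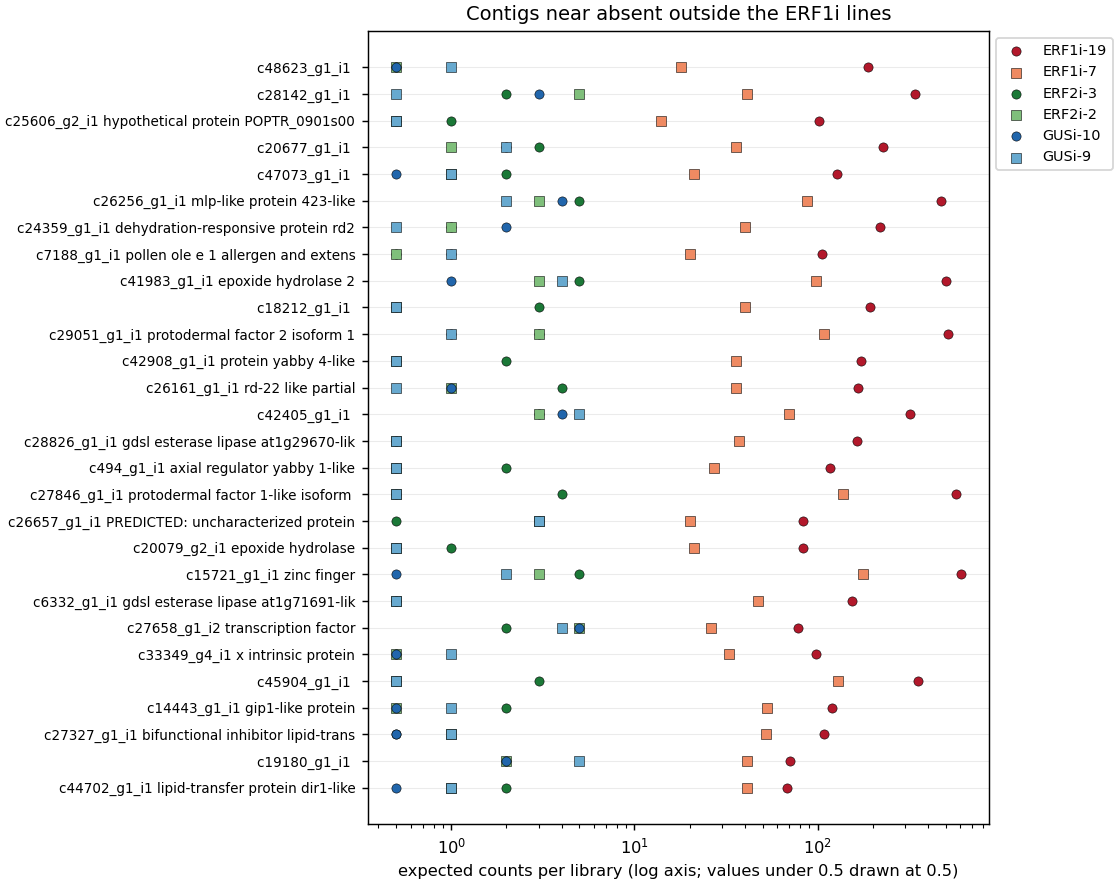
Expected counts (x axis, log) of the 28 contigs that were measured in ERF1i and had at most 5 counts in each other line, 1 row per contig and 1 point per library, ordered by the ratio of the ERF1i lines (some points of the other lines overlap). ERF1i-19 lies to the right of ERF1i-7 in every row, and the ERF2i and GUSi lines lie at 5 counts or below.

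Beyond these sets, the ERF1i clones differed in regulators and in cell wall and specialised metabolism. Of 69 AP2/ERF contigs, transcription factors of development and stress, 10 were higher and 14 lower in ERF1i-19 (34.8%, against 4.18% of all contigs). ERF114-like (c45107_g1_i1) had 747 expected counts in ERF1i-19 and 179 in ERF1i-7 and ERF025-like (c23309_g1_i1) had 855 in ERF1i-19 and 2353 in ERF1i-7. Of 77 MYB contigs 9 were higher and 1 lower (13%). Among the higher were 2 contigs whose best hit is PHANTASTICA, a leaf factor of Antirrhinum (c30616_g2_i1 and c30616_g2_i2), with log2 ratios of 2.03 and 2.22.

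Of 51 class III peroxidases, oxidases that cross-link cell walls, 8 were higher and 10 lower in ERF1i-19 (35.3%). Of 174 cytochrome P450 contigs 15 were higher and 15 lower (17.2%). A pair of CYP716-like contigs (c18441_g1_i1 and c18441_g2_i1), of a family that oxidises triterpenes, had log2 ratios of 2.77 and 2.79, with 156 expected counts in ERF1i-19 and 23 in ERF1i-7 for the second. Flavonoid 6-hydroxylase 2 (c18263_g1_i1) had 35 expected counts in ERF1i-19 and 217 in ERF1i-7, and the 4 contigs of flavone synthase II had log2 ratios of −1.71 to −1.57. The flavonoid list had 4 higher and 8 lower of 92 in that pair (13%).

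ABC and MATE transporters had 16 higher and 4 lower of 180 in ERF1i-19 (11.1%, against 4.18% of all contigs). Receptor-like kinases had 19 higher and 4 lower of 418 (5.5%), a share near that of all contigs. ABCG11-like (c39510_g1_i1), which exports wax and cutin precursors in Arabidopsis, had 126 expected counts in ERF1i-19 and 25 in ERF1i-7, and a G-type lectin receptor kinase (c27836_g2_i1) had 303 in ERF1i-19 and 51 in ERF1i-7. Lipid transfer protein c915_g1_i1 had 3387 expected counts in ERF1i-19 and 769 in ERF1i-7, 4.59-fold (counting interval 4.24 to 4.97) higher in ERF1i-19. Auxin genes had 0 higher and 8 lower of 92 (8.7%), and a GH3 contig (c28887_g1_i1), which conjugates auxin to amino acids, had 302 expected counts in ERF1i-19 and 884 in ERF1i-7. The highest ratio of a contig with a description was that of a glycine-rich precursor (c17500_g1_i1), with 449 expected counts in ERF1i-19 and 44 in ERF1i-7, 10.5-fold (counting interval 7.79 to 14.8) higher, and at most 10 counts in the other lines.

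In the GUSi pair 30 of the 42 contigs past 4-fold were lower in GUSi-10 than in GUSi-9. A receptor-like kinase (c33534_g1_i1, At3g47570-like), a membrane kinase with leucine-rich repeats, had 567 expected counts in GUSi-10 and 9 in GUSi-9, 58.8-fold (counting interval 32.6 to 137) higher in GUSi-10, against 1163 in ERF1i-19, 339 in ERF1i-7, 402 in ERF2i-3 and 282 in ERF2i-2. GUSi-9 was thus far below each of the other 5 lines. The contig annotated as S-norcoclaurine synthase 1 (c32904_g1_i1), whose best hit is a dioxygenase of flavonoid synthesis, had 113 expected counts in GUSi-10 and 2237 in GUSi-9, 19.9-fold (counting interval 16.6 to 24.4) lower in GUSi-10, against 385 in ERF1i-19, 423 in ERF1i-7, 492 in ERF2i-3 and 247 in ERF2i-2. Over all contigs of its assembly gene together the log2 ratio was −2.13, against −4.32 for the contig.

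A heat shock protein 70 (c23170_g1_i1), a chaperone, had 80 expected counts in GUSi-10 and 823 in GUSi-9, 10.3-fold (counting interval 8.26 to 13.2) lower in GUSi-10. It was at 3221 in ERF2i-3 and 4322 in ERF2i-2, and at 26 in ERF1i-19 and 33 in ERF1i-7. Contigs of 2 neighbouring assembly genes (c23170_g2_i1 and c23170_g3_i1) followed, with log2 ratios of −2.89 and −2.81 in GUSi. The 2 lines thus lay within 2-fold of each other in ERF1i and in ERF2i and apart in GUSi. Over the 222 heat shock contigs measured in GUSi 9 were lower and 0 higher (4.05%, against 1.33%), and the median was 0.01.

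Calcineurin subunit B (c33714_g1_i1), a calcium sensor, had 5 expected counts in GUSi-10 and 120 in GUSi-9, and 0 in ERF1i-19 with 47 in ERF1i-7. Higher in GUSi-10 were ACC oxidase 5-like (c30676_g1_i1), the last enzyme of ethylene synthesis, with 647 expected counts in GUSi-10 and 124 in GUSi-9, and RSI-1 (c48219_g1_i1), a gibberellin-regulated peptide of lateral roots in tomato, with 1259 in GUSi-10 and 271 in GUSi-9. A linalool/myrcene synthase was higher in GUSi-10 in all 4 of its contigs, for example c32886_g1_i4 with 293 expected counts in GUSi-10 and 109 in GUSi-9, and lay within 2-fold in ERF1i and ERF2i. These were the 4 of 16 terpene synthases past 2-fold in GUSi (25%), and the contigs share reads. Of 66 nitrate and ammonium contigs 0 were higher and 7 lower in GUSi-10 (10.6%, against 1.33% of all contigs). Ammonium transporter 3 member 1-like (c19642_g2_i2) had 28 expected counts in GUSi-10 and 113 in GUSi-9.

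The widest ratios in GUSi were those of contigs without a description. Contig c28562_g2_i1 had 18 expected counts in GUSi-10 and 1956 in GUSi-9, 265 in ERF2i-3 and 13 in ERF2i-2, and 47 in ERF1i-19 and 9 in ERF1i-7, and was the only contig past 16-fold in 2 pairs. Contigs c24132_g1_i1 and c31218_g1_i1 had 0 expected counts in GUSi-10 and 151 in GUSi-9, and 1 in GUSi-10 and 208 in GUSi-9. With 3 counts in place of 0 in GUSi-10, c24132_g1_i1 was at least 50.9-fold lower there. Such contigs were close to absent in 1 clone and read in its partner. Reads can also be exchanged between contigs of an assembly gene: a protease Do-like contig (c33391_g2_i7) had 13 expected counts in GUSi-10 and 521 in GUSi-9, while the summed ratio of its assembly gene was −0.99. Of the 15 contigs past 4-fold in GUSi that share an assembly gene with other contigs, this was the 1 whose gene sum was under 2-fold; in ERF1i it was 1 of 29 and in ERF2i 0 of 1.

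The ERF2i clones differed in few genes. Laccase-15 (c21360_g1_i1) had 101 expected counts in ERF2i-3 and 19 in ERF2i-2, 5.19-fold (counting interval 3.22 to 9.14) higher in ERF2i-3. Germin-like proteins, secreted metal-binding proteins of the cell wall, were among the highest ratios: subfamily 1 member 13-like (c29407_g1_i1) had 4880 expected counts in ERF2i-3 and 1693 in ERF2i-2, and subfamily T member 2-like (c31983_g1_i1) had 176 in ERF2i-3 and 58 in ERF2i-2. A cysteine protease (c34090_g1_i1) had 848 expected counts in ERF2i-3 and 314 in ERF2i-2. Nicotianamine synthase (c27004_g1_i1), which makes a chelator of iron and copper, had 622 expected counts in ERF2i-3 and 269 in ERF2i-2, and 839 in GUSi-10 and 1913 in GUSi-9. The furthest in the other direction was a TFL1-like contig (c45764_g1_i1), of a family that delays flowering, with 100 expected counts in ERF2i-3 and 303 in ERF2i-2, 3.04-fold (counting interval 2.42 to 3.86) lower in ERF2i-3, and it was 2.92-fold (counting interval 2.55 to 3.37) higher in GUSi-10, with 810 in GUSi-10 and 274 in GUSi-9. A bHLH factor (c26342_g1_i1) with 26 expected counts in ERF2i-3 and 59 in ERF2i-2 and peroxidase 47-like (c23459_g1_i1) with 157 in ERF2i-3 and 346 in ERF2i-2 were also lower in ERF2i-3.

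Few genes varied in more than 1 pair. Of the 19676 contigs measured in all pairs, 652 (3.31%) were past 2-fold in exactly 1 pair, 67 (0.341%) in exactly 2 and 8 (0.0407%) in all 3. The 53 contigs called in GUSi and in ERF1i were 30.6% of the 173 called in GUSi and 9.08% of the 584 called in ERF1i, beside 2.97% of all common contigs called in ERF1i and 0.879% in GUSi. The 24 called in ERF2i and in ERF1i were 45.3% of the 53 called in ERF2i and 4.11% of the 584 in ERF1i. The 14 called in ERF2i and in GUSi were 26.4% of the 53 in ERF2i and 8.09% of the 173 in GUSi. Of all common contigs 0.269% were called in ERF2i. Called in 1 pair alone were 515 of the 584 in ERF1i, 114 of the 173 in GUSi and 23 of the 53 in ERF2i. No libraries are shared between the pairs, while contigs of an assembly gene share reads and a gene with several contigs counts more than once.

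Of the 8 contigs past 2-fold in all 3 pairs, 7 were plant contigs and the other was neomycin phosphotransferase. Metallothionein (c33778_g1_i1), a small protein that binds copper and zinc, was the most unequal in ERF1i, with 34204 expected counts in ERF1i-19 and 8346 in ERF1i-7, 2848 in ERF2i-3 and 667 in ERF2i-2, and 693 in GUSi-10 and 3897 in GUSi-9. Its log2 ratios were 2.09, 2.09 and −2.51, so that in each construct 1 clone held more than 4 times the reads of the other. An EG45-like contig (c39319_g1_i1), related to expansins, had 2551 expected counts in ERF1i-19 and 1295 in ERF1i-7, 930 in ERF2i-3 and 204 in ERF2i-2, and 396 in GUSi-10 and 2266 in GUSi-9. A serine-type endopeptidase inhibitor (c39438_g1_i1) had 1040 expected counts in ERF1i-19 and 462 in ERF1i-7, 201 in ERF2i-3 and 71 in ERF2i-2, and 66 in GUSi-10 and 236 in GUSi-9. An O-methyltransferase (c25647_g1_i1), whose best hit is from *C. roseus*, had log2 ratios of 1.24, 1.20 and −1.91. These 4 contigs were high in the same clone of each pair, ERF1i-19, ERF2i-3 and GUSi-9, whereas neomycin phosphotransferase was high in GUSi-10.

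Peroxidases made up 2 of the other contigs. Peroxidase 52-like (c20476_g2_i1) had 2323 expected counts in ERF1i-19 and 1147 in ERF1i-7, 1012 in ERF2i-3 and 474 in ERF2i-2, and 2461 in GUSi-10 and 1057 in GUSi-9. Peroxidase 60-like (c31915_g1_i1) had 139 expected counts in ERF1i-19 and 319 in ERF1i-7, 68 in ERF2i-3 and 29 in ERF2i-2, and 147 in GUSi-10 and 67 in GUSi-9. The remaining contig (c23037_g1_i1), an unnamed protein, had log2 ratios of −1.70, 1.20 and −1.04. A bHLH factor (c26342_g1_i2, 58 expected counts in ERF1i-19 and 143 in ERF1i-7), HVA22-like protein C (c13078_g1_i1, 414 in ERF1i-19 and 151 in ERF1i-7), basic 7S globulin (c33267_g1_i3) and peroxidase 73 (c47440_g1_i1) came close, with smallest absolute log2 ratios of 0.98, 0.84, 0.84 and 0.89 over the 3 pairs. Over all contigs of its assembly gene together the globulin turned round in GUSi, with a log2 ratio of −0.59, against 0.84 for the contig.

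**Figure D5:**
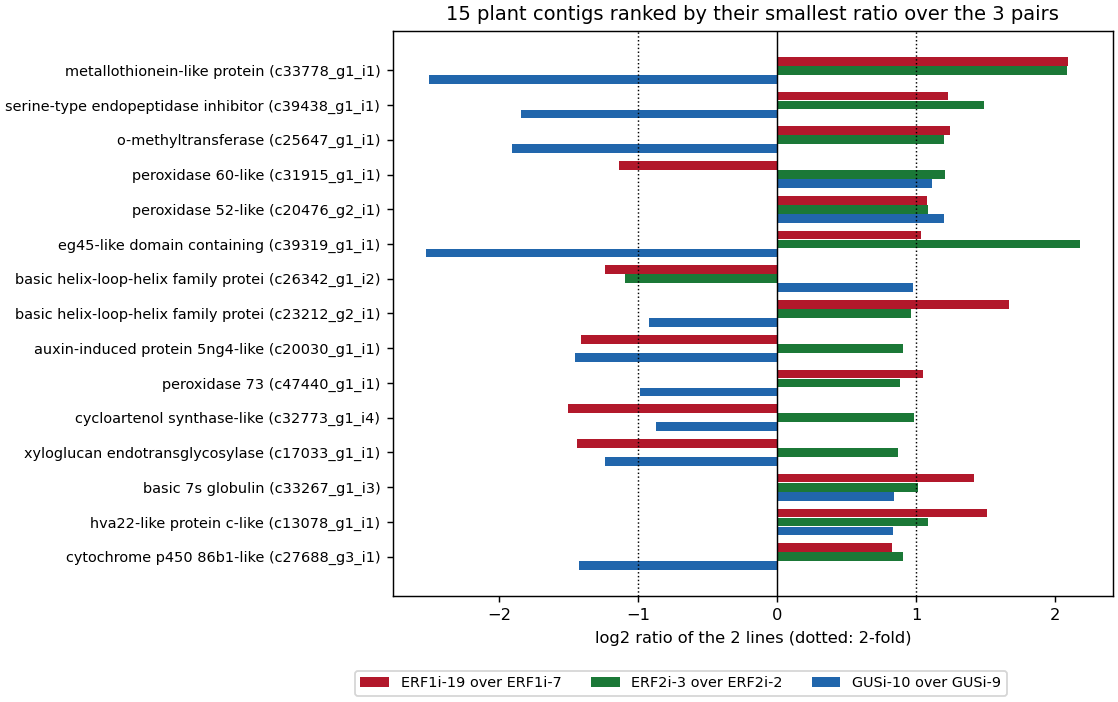
Log2 ratios of the 2 lines (x axis, 2-fold dotted) in the 3 pairs for the 15 described plant contigs whose smallest absolute ratio over the pairs was largest, in that order from the top. Metallothionein leads with 2.09, 2.09 and −2.51, and the sign of a bar says only which line of its pair was higher.

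Some genes were past 2-fold in a pair of constructs. Flavone synthase was lower in ERF1i-19 than in ERF1i-7 and lower in GUSi-10 than in GUSi-9 in each of 4 contigs; c29183_g1_i1 had 224 expected counts in ERF1i-19 and 699 in ERF1i-7, and 681 in GUSi-10 and 1424 in GUSi-9. An auxin-induced 5NG4-like contig (c20030_g1_i1), of a family of transporters, had 954 expected counts in ERF1i-19 and 2644 in ERF1i-7, and 1103 in GUSi-10 and 2995 in GUSi-9. Strictosidine synthase 3-like (c24194_g1_i1) was past 2-fold in ERF1i and in ERF2i, with 486 expected counts in ERF1i-19 and 1302 in ERF1i-7, and 442 in ERF2i-3 and 211 in ERF2i-2. A monoterpene synthase (c39295_g1_i1) had 431 expected counts in ERF1i-19 and 1241 in ERF1i-7, and 494 in ERF2i-3 and 231 in ERF2i-2. A hypoxia-responsive contig (c26838_g1_i3) had 141 expected counts in ERF1i-19 and 45 in ERF1i-7, and 52 in GUSi-10 and 112 in GUSi-9, beside 1068 in ERF2i-3 and 1025 in ERF2i-2.

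The families that varied in several pairs were ranked by the share of their members past 2-fold in at least 2 pairs, over the 56 lists with at least 10 members measured in all pairs. Over all contigs this share was 0.381% (75 of 19676). Peroxidases led with 5 of 40 (12.5%), and 17 of the 40 were past 2-fold in at least 1 pair. AP2/ERF factors followed with 5 of 57 (8.77%), then terpene synthases with 1 of 16 (6.25%), strictosidine synthase-like proteins and beta-glucosidases with 4 of 65 (6.15%), and flavonoid genes with 4 of 81 (4.94%). The share of terpene synthases rests on 1 contig, and the 4 contigs of flavone synthase named above belong to 1 enzyme. Such shares do not show that a family varies as a whole. Of the 56 lists 27 had no such member.

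In the ERF2i pair peroxidases were 4 past 2-fold of 40 (10%, against 0.346%), 3 higher and 1 lower in ERF2i-3. AP2/ERF factors were 3 of 65 (4.62%), 2 higher and 1 lower. In the GUSi pair peroxidases were 6 of 45 (13.3%, against 1.33%), 5 higher and 1 lower in GUSi-10. AP2/ERF factors were 4 of 68 (5.88%), 3 higher and 1 lower. The median log2 ratios of both families stayed between −0.17 and 0.24 in every pair, which describes mostly members within 2-fold. Further AP2/ERF contigs past 2-fold in 2 pairs were an ANT-like factor (c14044_g1_i1), a regulator of organ growth, with 865 expected counts in ERF1i-19 and 343 in ERF1i-7, and 278 in ERF2i-3 and 137 in ERF2i-2, and an ERF026-like contig (c28989_g1_i1) with 83 in ERF1i-19 and 235 in ERF1i-7, and 106 in GUSi-10 and 46 in GUSi-9.

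Among the genes of camptothecin precursors, strictosidine synthase lay within 2-fold between clones of each construct, while some other contigs did not. Of the 12 contigs of the MEP pathway, the plastid route to isoprenoids, 0 were past 2-fold in any pair, and of the 16 contigs of jasmonic acid biosynthesis 0 were; at the share of all contigs lists this short would hold about 1 or none. Of the secologanin-strictosidine list 2 of 28 were lower in ERF1i-19 (7.14%, against 4.18% of all contigs), 0 of 24 were past 2-fold in ERF2i and 2 of 27, contigs of 1 assembly gene, were higher in GUSi-10 (7.41%, against 1.33%). Their median log2 ratios were −0.29 in ERF1i (range −1.04 to 0.42), 0.34 in ERF2i (−0.30 to 0.81) and −0.12 in GUSi (−0.66 to 1.79), beside medians over all contigs of 0.00, 0.01 and 0.01. In ERF1i 20 of 28 contigs were lower in ERF1i-19, and in ERF2i 19 of 24 were higher in ERF2i-3. Contigs of an assembly gene share reads and the steps of a pathway are not independent. Some members of these lists carry descriptions of other proteins. The MEP list holds cyclin-dependent kinase G-2-like contigs (c33486_g6_i1 and c33486_g6_i2), and the jasmonic acid list holds receptor-like kinase contigs such as c31060_g2_i2. The secologanin-strictosidine list holds a WD repeat protein (c32159_g1_i1).

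Tryptophan decarboxylase (c28648_g1_i1), which makes tryptamine, had 9794 expected counts in ERF2i-3 and 5535 in ERF2i-2 (log2 ratio 0.81), 12554 in ERF1i-19 and 9993 in ERF1i-7, and 10672 in GUSi-10 and 14100 in GUSi-9. Strictosidine synthase (c47430_g1_i1), which joins tryptamine with secologanin, had 4652 expected counts in ERF2i-3 and 3048 in ERF2i-2 (log2 ratio 0.60), 7441 in ERF1i-19 and 9510 in ERF1i-7, and 8264 in GUSi-10 and 8085 in GUSi-9. Secologanin synthase-like (c41889_g1_i1) had 9657 expected counts in ERF2i-3 and 6682 in ERF2i-2, and lay within 0.11 on the log2 scale in the other pairs. Geraniol synthase (c36701_g1_i1), at the entry of the iridoid route, had 501 expected counts in ERF1i-19 and 967 in ERF1i-7 (log2 ratio −0.89). The contigs past 2-fold were a second tryptophan decarboxylase (c28893_g1_i1) with 146 expected counts in ERF1i-19 and 314 in ERF1i-7, a second secologanin synthase-like contig (c27549_g2_i1) with 397 in ERF1i-19 and 842 in ERF1i-7, 7-deoxyloganic acid hydroxylase-like (c4068_g1_i1) with 117 in GUSi-10 and 33 in GUSi-9, and its other contig (c4068_g1_i2) with 112 in GUSi-10 and 46 in GUSi-9. Strictosidine synthase and the tryptophan decarboxylase c28648_g1_i1 thus stayed within 2-fold between clones of each construct.

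Contigs of basic cell functions were past 2-fold at or below the share of all contigs in ERF1i. Ribosomal protein contigs had 2 of 274 past 2-fold in ERF1i (0.73%, against 4.18%), 0 of 267 in ERF2i (against 0.346%) and 1 of 271 in GUSi (0.369%, against 1.33%). Cell cycle and histone contigs had 3 lower of 221 in ERF1i-19 (1.36%, against 4.18%), 0 of 219 in ERF2i (against 0.346%) and 1 higher of 221 in GUSi-10 (0.452%, against 1.33%). Glycolysis contigs had 0 past 2-fold of 67, 67 and 66 in the order ERF1i, ERF2i, GUSi, against 4.18%, 0.346% and 1.33% of all contigs. Proteasome contigs had 0 of 59, 0 of 56 and 1 of 58 in the same order, the last a share of 1.72%, near that of all contigs. At the share of all contigs lists of these sizes would hold about 1 or none in ERF2i. Outside these functions, WRKY factors, regulators of defence, had 1 of 44 in ERF1i (2.27%, against 4.18%) and 0 of 42 in ERF2i. In GUSi they had 1 of 43 (2.33%), above the 1.33% of all contigs.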

How the data were processed

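RNA-seq libraries of 6 hairy root lines were deposited as 1 table per library. Per the study's methods the authors aligned reads to an earlier *de novo* assembly of *O. pumila*, and the tables hold the deposited expected counts and FPKM for each of 59855 contigs. The submitters' processing notes name Bowtie2 2.0, RSEM and DESeq. A best BLAST hit and a description come from the deposited annotation table, whose FPKM columns served only to check line names.

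Expected counts were scaled by TMM (edgeR 4.0.16, R 4.3.3), contigs under a mean of 50 scaled counts in a pair were left out, 0.5 was added, and log2 ratios were formed (Python 3.11.15, numpy 2.4.6, pandas 2.3.3, scipy 1.17.1, matplotlib 3.10.9). The code was tested on simulated data. Exact 95% Clopper-Pearson intervals use the 2 counts only. With totals of 11517610 to 13199946 and 1 library per line, no test was made. Alternatives were DESeq2 1.42.0 size factors, total counts, TMM within a pair, floors of 20 and 200, FPKM plus 1, sums per assembly gene, and leaving out contigs with best hits outside plants or in a T-DNA list, which also holds the 3 contigs of unannotated origin.

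Named were, with 1 contig per assembly gene, plant contigs with a description: the 8 highest and 8 lowest per pair, the 15 with the largest smallest ratio over the 3 pairs, up to 4 per gene list, the targeted genes, and T-DNA contigs. Copper contigs, those near absent outside ERF1i, contigs without a description, second contigs of a gene and the alkaloid genes were named beyond this rule, after their values were seen. The members and the 60 lists, matched by words in the descriptions, were chosen with earlier results of these data known.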

Additional observations from a re-analysis of the deposited data

How the results depend on the processing

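The count floor moved the counts of contigs most. With a floor of 20 scaled counts, 1522 contigs were past 2-fold in ERF1i, 307 in ERF2i, 589 in GUSi and 17 in all 3 pairs, and with a floor of 200 there were 342, 27, 104 and 4, against 898, 74, 284 and 8 as reported. On FPKM plus 1 ERF2i had 41. The order of the pairs was ERF1i, GUSi, ERF2i under each of these settings. The lists whose share past 2-fold in at least 2 pairs was above that of all contigs were 14 of those compared at a floor of 200. At the floor of 50 they were 28 of 56, the copper list drawn up after its values were seen among them. In most lists 1 such member was enough to lie above that share, so these counts say little about families. The other scalings, sums per assembly gene and leaving out contigs from outside plants kept these counts within 1.5 times, and the median absolute log2 ratios moved little under every alternative. Among 189 ratios of named contigs, 8 moved on FPKM plus 1, 7 on sums per assembly gene and 0 under another scaling. On sums per assembly gene 3 ratios changed sign: basic 7S globulin c33267_g1_i3 in GUSi was −0.59 (0.84 as reported), S-norcoclaurine synthase 1 c32904_g1_i1 in ERF1i was 0.55 (−0.08), and the indole acetamide hydrolase contig c12981_g1_i2 in GUSi was −0.07 (0.13). Of the contigs near absent outside ERF1i, 13 of 14 were past 2-fold higher in ERF1i-19 at a limit of 2 counts and 33 of 37 at 10, limits chosen after seeing the data. Leaving out a library gives no value, since each ratio needs both lines. No paired analysis was possible because no test was made and the clone numbers are not shared between constructs. Expected counts depend on how RSEM divides reads among similar contigs, and with 1 library per line depth limits only the counting error.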
